A study of Homo sapiens with 12 samples.

Results

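The genes described here lie in the outer part of the short arm of human chromosome 1, a region known as 1p36 and here taken as every gene that ends at or before base 28000000 (GRCh38). Of 392 protein-coding rows of the deposited table in that region, 185 were selected on their level, after 15 genes were set aside by name. These 185 had a mean of at least 2 FPKM over all 12 libraries. The FPKM here are fragments scaled for gene length and for a size factor of each library. Of the 15, 13 had reached the cutoff, and 192 other rows lay under it, 51 of them with 0 reads in every library. The table held 58735 genes, 19951 of them protein-coding, and the 9748 other protein-coding genes at the same cutoff, on all chromosomes, served for comparison. The values that chose the members were their mean levels, so the cutoff itself is no result. Just inside it lay SPSB1 at 2.002, NPHP4 at 2.10 and FBXO2 at 2.11 FPKM, and among those just outside were NMNAT1 at 1.92 and SLC35E2A at 1.86. Since the mean runs over all groups, 33 members reached the cutoff although at least 1 group lay under it, and those had to differ to some degree. Among these 33 are AGRN, FUCA1, HSPB7, DHRS3, FBXO2, FBXO44, FBXO6, PIK3CD, TNFRSF25, PLEKHG5, GPR153, KAZN, SAMD11, FAM43B and RAP1GAP. The differences given for them below are thus bound in part to the selection. The other 152 (82.2%, against 80.2% of the other genes) were at 2 FPKM or more in all 4 groups.

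RNA was sequenced from 2 human neuroblastoma lines, tumour cells of the developing sympathetic nervous system, and the study asked about TSPYL5, a relative of the nucleosome assembly proteins, in stem-cell properties of such tumours. Each line carried a control hairpin RNA (shNC in the titles, genotype label WT) or a hairpin against TSPYL5 (shL5, genotype label knockdown), with no treatment and 3 libraries in each of the 4 groups. The labels of the first line all read SK-N-SH. Those of the second conflict, with SK_N_BE2 in titles but SH-SY5Y elsewhere, and it is called BE2 here after the titles. The labels do not say whether the hairpin lines were single clones or whether the 3 libraries of a group came from separate cultures, so p-values measure the spread between these libraries, which may be technical.

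Loss of a copy of distal 1p is a recurrent lesion of neuroblastoma, often seen in tumours with amplified MYCN, and many genes of the region have been proposed as the suppressor it removes. A deleted segment can lower the transcripts of its genes together, so a shift of a whole block of neighbours reads differently from changes of single genes. Copy number was not analysed here.

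The group labels need care. TSPYL5 itself was at 13.1, 13.4 and 12.2 FPKM in SK-N-SH control and at 17.1, 18.3 and 17.8 in SK-N-SH shTSPYL5, so the libraries labelled as knockdown were higher in that line. In BE2 it was at 24.0, 24.4 and 25.8 in control and at 13.3, 12.4 and 12.6 in shTSPYL5. MYCN, the oncogene amplified in some neuroblastoma lines, was at 988 to 1082 FPKM in SK-N-SH shTSPYL5 and at 1006 to 1072 in BE2 control, against 6 reads in all in SK-N-SH control and 0 in BE2 shTSPYL5. Libraries of these 2 MYCN-high groups correlated with each other at r = 0.986 to 0.987 over the tested genes, and SK-N-SH control with BE2 shTSPYL5 at 0.960 to 0.975, whereas control and shTSPYL5 of the same labelled line correlated at 0.692 to 0.724. Summed FPKM of 10 neuroblast markers ran from 1218 to 1420 in the MYCN-high groups and from 70.6 to 97.3 in the other groups, where TH had 0 reads. That of 10 mesenchymal markers ran from 232 to 253 and from 1472 to 2360, with COL1A1 the largest part of the latter at means of 809.7 and 507.7. Among them TWIST1 went the other way, with means of 125.7 and 134.2 FPKM in the MYCN-high groups against 73.03 and 46.9, and SNAI2 was at 2.73 to 6.09 in all 4 groups. All group names below are therefore labels only: "higher in SK-N-SH shTSPYL5" means higher in the libraries labelled so, and a direction carries no statement on loss of TSPYL5. Of the other markers, 7 blood and endothelial genes summed to at most 1.63 FPKM in any library. The 5 epithelial ones summed to 19.4 to 29.4 in the MYCN-low groups against at most 1.03. KRT18 was the largest part, at means of 17.3 in SK-N-SH control and 22.3 in BE2 shTSPYL5, followed by KRT8. EPCAM went the other way, at means of 0.296 and 0.337 FPKM against 0.704 and 0.814 in the MYCN-high groups. CDH1 was at a mean of at most 0.0122 in any group, and KRT5 had 0 reads in every group. The part of cell identity in the results below was not tested, and fewer cells of a type cannot be told apart from less RNA per cell.

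The members took 1.40 to 1.52% of the 15425460 to 19249018 reads of a library. HMGN2, a nucleosome-binding protein, was the most abundant at a mean of 177 FPKM, followed by DDOST, a subunit of the oligosaccharyltransferase, at 118.7 and PARK7, the parkinsonism protein DJ-1, at 108.3, and the median member was at 9.46 FPKM. Exon bases are shared with another gene on the same strand by 21 members and on the opposite strand by 65, and no member shares 50% or more of them. No source used here says whether counting used strand, so overlapping genes cannot be told apart by their reads. Levels of CDK11B, ATAD3A, ATAD3B, UQCRHL and NBPF1, which have near-identical copies, are uncertain for the same kind of reason.

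Upstream sequences of 4 members are shown because they carry the neighbour results given further on: divergent genes that moved together or apart from a shared stretch, and a suppressor candidate with 2 canonical E-boxes (CACGTG, the same on both strands, the site bound by MYC-family proteins). Each is the 250 bases before the RefSeq start site on GRCh38.p14, written 5′ to 3′ on the gene's own strand with CACGTG in capitals.
B3GALT6 (plus strand, chr1:1231987-1232236, divergent from SDF4): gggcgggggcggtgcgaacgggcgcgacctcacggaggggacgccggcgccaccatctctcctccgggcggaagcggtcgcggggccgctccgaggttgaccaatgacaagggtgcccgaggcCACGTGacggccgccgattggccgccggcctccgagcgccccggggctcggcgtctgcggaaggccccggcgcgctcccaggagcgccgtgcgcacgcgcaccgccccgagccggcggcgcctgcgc
FBXO44 (plus strand, chr1:11654157-11654406, divergent from FBXO2): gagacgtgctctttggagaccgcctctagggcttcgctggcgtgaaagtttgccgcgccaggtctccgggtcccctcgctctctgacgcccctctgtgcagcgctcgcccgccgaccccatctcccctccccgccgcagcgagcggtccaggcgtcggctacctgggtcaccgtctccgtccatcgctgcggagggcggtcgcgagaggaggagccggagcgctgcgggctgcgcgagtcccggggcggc
MRTO4 (plus strand, chr1:19251555-19251804, divergent from EMC1): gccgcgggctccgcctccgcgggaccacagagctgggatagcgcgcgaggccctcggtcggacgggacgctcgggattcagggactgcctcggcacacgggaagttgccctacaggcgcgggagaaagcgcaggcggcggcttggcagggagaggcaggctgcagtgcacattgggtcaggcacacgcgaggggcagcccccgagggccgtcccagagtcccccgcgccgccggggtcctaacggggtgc
DFFA (minus strand, chr1:10472530-10472779): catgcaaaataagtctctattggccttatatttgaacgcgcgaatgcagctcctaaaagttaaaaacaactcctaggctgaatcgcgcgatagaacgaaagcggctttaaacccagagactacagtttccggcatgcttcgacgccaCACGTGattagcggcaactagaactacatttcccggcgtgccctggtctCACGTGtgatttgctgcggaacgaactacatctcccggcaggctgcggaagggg

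By the median over all 185, the members hardly shifted as a block between the groups, although most of them differed one by one. Between SK-N-SH shTSPYL5 and SK-N-SH control the median difference of log2(FPKM + 1) over the 185 members was 0.06, beside 0.04 over the other protein-coding genes. Between BE2 shTSPYL5 and BE2 control it was 0.09 beside 0.03, and between the controls, BE2 minus SK-N-SH, 0.06 beside 0.05. SK-N-SH shTSPYL5 minus BE2 control gave 0.00 beside -0.00, and BE2 shTSPYL5 minus SK-N-SH control 0.14 beside 0.09. These 5 comparisons reuse the same 4 groups, so their values stand side by side and do not add to one another. Per library, the members' median level, relative to each gene's mean over the 12 libraries and minus that of the other genes, averaged -0.014 ± 0.0079 (SD, n = 3) in SK-N-SH control, -0.022 ± 0.023 in SK-N-SH shTSPYL5 and -0.024 ± 0.0067 in BE2 control. In BE2 shTSPYL5 it was 0.049 ± 0.022, and its 3 libraries, at 0.056, 0.067 and 0.025, were above the other 9. The medians were less even by level, in bands from 2, 10 and 50 FPKM (100, 74 and 11 members). In BE2 shTSPYL5 minus control they were 0.04, 0.26 and -0.06, beside 0.02, 0.06 and 0.09 over the other genes. In SK-N-SH they were 0.08, 0.01 and 0.32, beside 0.01, 0.09 and 0.05.

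**Figure D1:**
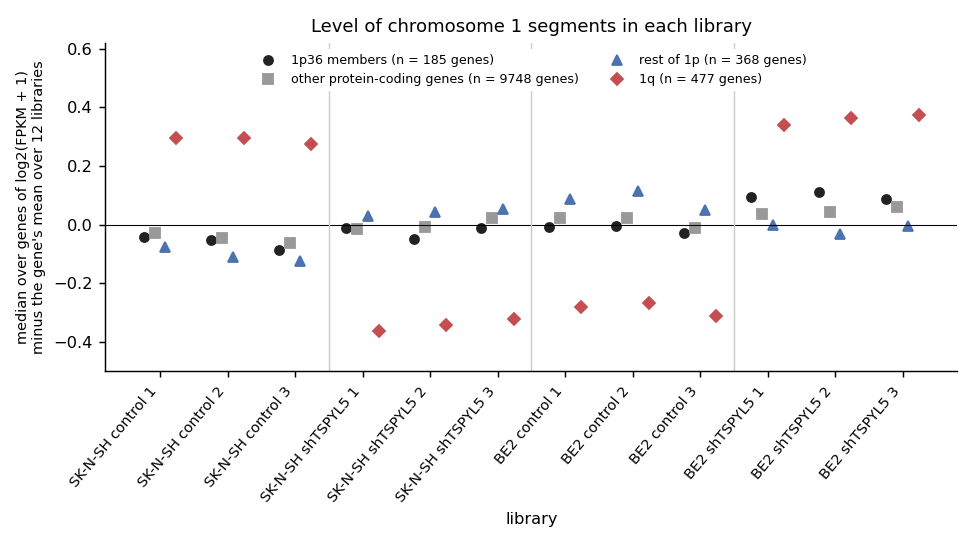
Median over genes of log2(FPKM + 1), taken relative to each gene's mean over the 12 libraries, for the 185 members, the other protein-coding genes at the cutoff and 2 further segments of chromosome 1, in each library (1 point per library and set, with no error bar). The members (black circles) stay within -0.09 and 0.11 in every library, near the grey squares, whereas the 477 genes of 1q (red diamonds) lie between 0.27 and 0.37 in 6 libraries and between -0.36 and -0.27 in the other 6.

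The long arm of the same chromosome lay further from 0. The 477 genes of 1q at the cutoff had a median difference of -0.64 in SK-N-SH shTSPYL5 minus control and of 0.63 in BE2 shTSPYL5 minus control, beside 0.04 and 0.03 over the other genes. The 368 genes of the rest of 1p lay nearer to these, at 0.10 and -0.13. Over the 23 chromosomes the medians ran from -0.55 (chromosome 18) to 0.41 (chromosome 2) in the first comparison and from -0.34 (chromosome 22) to 0.71 (chromosome 18) in the second. The members' median was lower than that of 13 chromosomes and higher than that of 10 in SK-N-SH, and lower than 9 and higher than 14 in BE2. Whether copy number moves with these medians was not tested.

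**Figure D2:**
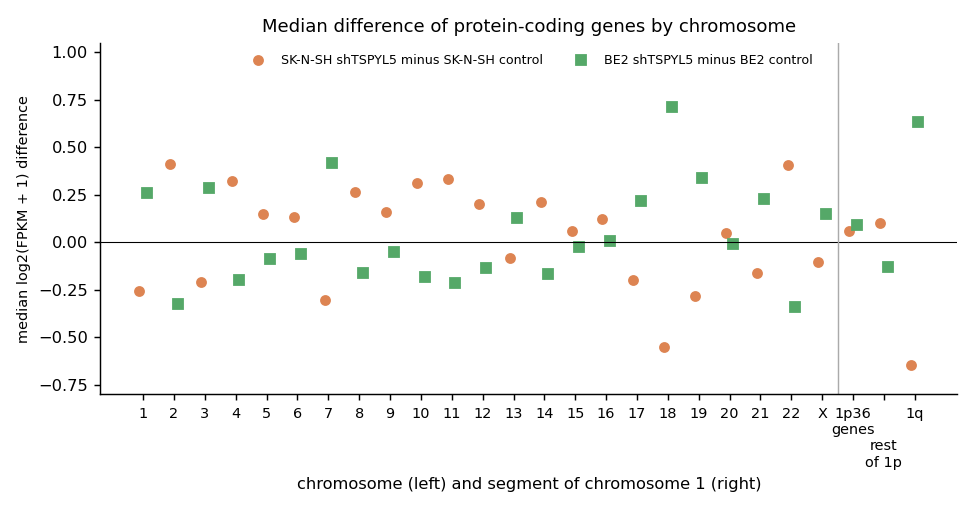
Median log2(FPKM + 1) difference, shTSPYL5 minus control, of the protein-coding genes at the cutoff on each chromosome (left of the line) and in 3 segments of chromosome 1 (right of the line), for the SK-N-SH label (orange circles) and the BE2 label (green squares). The 1p36 members sit at 0.06 and 0.09, near 0, while 1q sits at -0.64 and 0.63 and chromosome 18 at -0.55 and 0.71.

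Along the region both directions were mixed. Cut into 4 windows of 7 Mb from the chromosome end, with 55, 36, 37 and 57 members, the medians were 0.09, 0.12, -0.03 and 0.10 in SK-N-SH shTSPYL5 minus control and 0.09, -0.03, 0.27 and 0.04 in BE2. Each window held both directions: in SK-N-SH, 25 members were higher and 20 lower in the outermost window, 18 and 14 in the next, 12 and 15 in the third and 26 and 24 in the innermost. Beside these, 45.0% of the other protein-coding genes were higher and 41.5% lower, so mixed directions are not particular to the region. The running median of 15 neighbouring members went from -0.78 to 0.56 in SK-N-SH and from -0.52 to 1.24 in BE2. Between the MYCN-high groups it stayed within -0.06 and 0.08, and in BE2 shTSPYL5 minus SK-N-SH control it ran from -0.02 to 0.48.

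**Figure D3:**
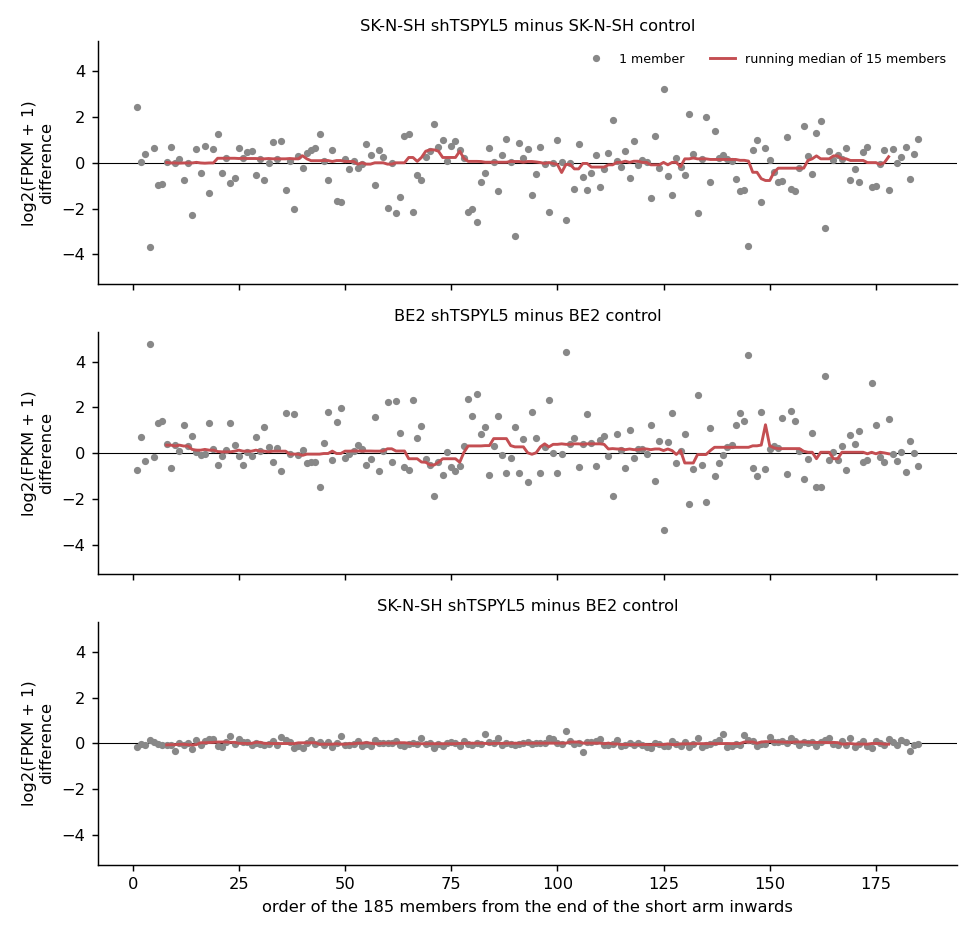
Difference of log2(FPKM + 1) of each of the 185 members (grey points) by its order from the end of the short arm inwards, with the running median of 15 members (red), for 3 comparisons on the same scale. Points scatter to both sides of 0 along the whole region in the upper and middle panels and lie close to 0 in the lowest, where SK-N-SH shTSPYL5 is compared with BE2 control.

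Taken one by one, 81 of the 185 members were higher and 73 lower in SK-N-SH shTSPYL5 than in SK-N-SH control (limma, Benjamini-Hochberg adjusted p under 0.05 over all 15856 genes tested), and 31 did not pass. Of the other protein-coding genes 45.0% were higher and 41.5% lower, and of all genes tested 40.7% and 39.0%, so the members' shares of 43.8% and 39.5% were near the background. At a difference of at least 2-fold (1 on the log2 scale of the fit), 19 members were higher and 35 lower, shares of 10.3% and 18.9%, beside 16.0% and 16.4% of the other genes. In BE2 shTSPYL5 minus control 86 members were higher and 68 lower, where 45.0% and 42.2% of the other genes and 39.9% and 40.2% of all genes did so. At least 2-fold there were 44 higher and 13 lower, or 23.8% and 7.03%, beside 19.3% and 14.6%. Scaling to equal library totals moved the median of all genes in this comparison by -0.11 and gave 78 members higher and 77 lower. Shares of the other genes were not counted at that scaling, here or below. The spread over members was smaller than over the other genes, with an SD of 1.09 against 1.39 in SK-N-SH and 1.16 against 1.46 in BE2.

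The calls of both lines were mostly mirror images. Of the 134 members past the threshold in both lines, 132 moved in opposite directions: 65 were higher in SK-N-SH shTSPYL5 and lower in BE2 shTSPYL5, and 67 the reverse. That is 71.4% of the members, beside 76.9% of the other genes. The difference of effects, tested as an interaction term, passed in 164 members, 85 of them more positive in BE2 and 79 more negative, beside 90.7% of the other genes and 84.9% of all genes in either direction. Each shTSPYL5 group resembled the control of the other label. Opposite signs and a passing interaction follow from that likeness and are no separate result. In both lines 2 members passed as higher, among them ATAD3B, a mitochondrial ATPase, and 0 members passed as lower. Passing in the same direction were thus 1.1% of the members, beside 2.2% of the other genes (136 higher and 77 lower). ATAD3B differed by 0.60 and 0.16 (adjusted p = 2.0e-06 and 0.028), and its second call was lost at equal library totals (difference 0.02, adjusted p = 0.78) and without BE2 control replicate 1 (0.11), BE2 control replicate 3 (0.066) or BE2 shTSPYL5 replicate 1 (0.083), over a range of 0.013 to 0.78. Of the 185, 11 (5.95%, beside 5.34% of the other genes) passed in neither line: WRAP73, KLHL21, THAP3, PEX14, UQCRHL, ZBTB17, ALDH4A1, AKR7A2, CAPZB, DHDDS and WDTC1, a count named after its values were seen.

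AGRN, FUCA1, SH3BGRL3 and HSPB7 were among the members that lay furthest below in the MYCN-high groups. AGRN (ENSG00000188157, chr1:1020123-1056118), the basement membrane proteoglycan agrin, was at 26.3, 31.1 and 25.6 FPKM in SK-N-SH control and at 1.29, 1.20 and 1.10 in SK-N-SH shTSPYL5. In BE2 it was at 0.941, 0.915 and 1.004 in control and at 46.4, 57.6 and 54.4 in shTSPYL5. The mean was thus 23.1-fold lower in the first comparison (log2 difference -3.70, SE 0.09, limma adjusted p = 5.9e-12) and 55.4-fold higher in the second (4.78, SE 0.09, adjusted p = 6.7e-13), and no groups overlapped. FUCA1, the lysosomal fucosidase, was at 19.8, 21.2 and 21.3 FPKM in SK-N-SH control against 0.915, 0.955 and 0.436 in shTSPYL5, and at 0.442 to 0.629 in BE2 control against 26.0, 32.1 and 31.2 in shTSPYL5. Its log2 differences were -3.63 (SE 0.12) and 4.30 (SE 0.12). SH3BGRL3, a small protein of thioredoxin fold, was high throughout the MYCN-low groups, at 90.7, 95.4 and 106 FPKM and at 113, 138 and 132, against 11.4 to 13.7 and 11.4 to 11.5 in the MYCN-high groups. HSPB7, a small heat shock protein of heart and muscle, was at 10.1, 14.0 and 10.8 FPKM in SK-N-SH control and at 23.02, 42.6 and 32.8 in BE2 shTSPYL5, against at most 1.47 elsewhere. The BE2 shTSPYL5 libraries were the most spread of any group for this gene (SD 9.81 FPKM).

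DHRS3, a reductase that turns retinaldehyde into retinol, differed also between the MYCN-low groups. It was at 6.27, 13.8 and 8.18 FPKM in SK-N-SH control and at 1.90, 1.56 and 0.992 in BE2 shTSPYL5, while both MYCN-high groups lay at 0.042 to 0.173. Replicate 2 of SK-N-SH control stood above its group, and the 3 ranges did not overlap.

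KDM1A, RCC2, RAP1GAP, FAM43B and SAMD11 were among the members higher in the MYCN-high groups. KDM1A, a histone lysine demethylase that represses transcription, was at 18.3, 17.6 and 17.8 FPKM in SK-N-SH control and at 72.1, 72.1 and 77.0 in SK-N-SH shTSPYL5, a mean 4.12-fold higher (log2 difference 1.98, SE 0.06, limma adjusted p = 6.9e-11). In BE2 it was at 77.6, 76.6 and 75.0 in control and at 18.3, 15.03 and 16.5 in shTSPYL5, or 4.60-fold lower (-2.14, SE 0.06, adjusted p = 3.2e-11). RCC2, a regulator of mitosis and of small GTPases, was at 34.0, 34.0 and 29.6 FPKM and then 122, 117 and 122 in SK-N-SH, and at 125, 123 and 118 and then 33.7, 31.3 and 31.9 in BE2. Both genes were at one level in the MYCN-high groups and at another in the MYCN-low ones, with no overlap. RAP1GAP, which switches off the GTPase Rap, was at 3.67 to 4.69 FPKM in the MYCN-high groups and at 0.0839 to 0.185 in the others. FAM43B, a gene of little-known function, had 1130 and 1228 reads in the MYCN-high groups (8.27 to 10.4 FPKM). It had 4 reads in SK-N-SH control and 1 in BE2 shTSPYL5, so no ratio of means is given. The log2 differences of FAM43B given below depend on the 1 added to each FPKM. SAMD11, a nuclear protein with a SAM domain, was at 0.451, 1.04 and 1.03 FPKM in SK-N-SH control, at 4.82, 6.53 and 5.36 in BE2 shTSPYL5, and at 8.01 to 10.9 in the MYCN-high groups.

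**Figure D4:**
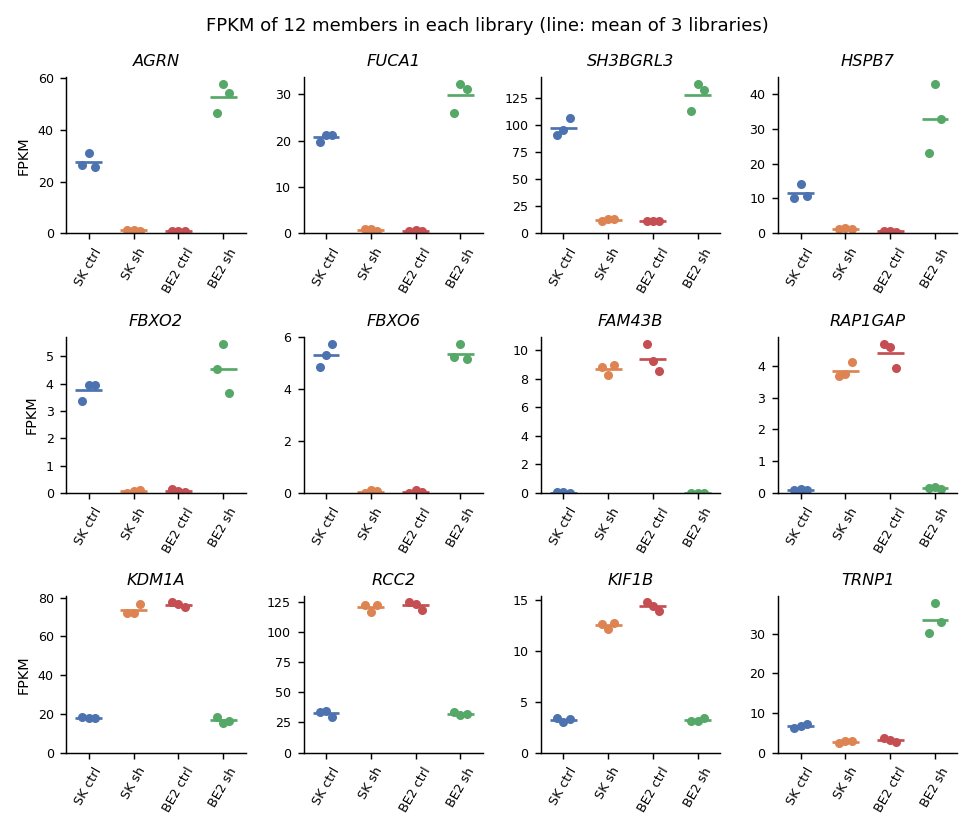
FPKM of 12 members in each of the 12 libraries (points) with the group mean of 3 libraries (line), each panel on its own axis from 0. The MYCN-high groups (SK sh, orange, and BE2 ctrl, red) lie together in every panel, low for AGRN, FUCA1, SH3BGRL3, HSPB7, FBXO2, FBXO6 and TRNP1 and high for FAM43B, RAP1GAP, KDM1A, RCC2 and KIF1B.

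Of 24 genes of the region called suppressor candidates here, by a list drawn up for this report, 18 were members. Between SK-N-SH shTSPYL5 and control 11 were higher, 6 lower and 1 did not pass (median 0.43), and in BE2 6 were higher, 9 lower and 3 did not pass (median -0.19). Of the other protein-coding genes 45.0% were higher and 41.5% lower in the first comparison (median 0.04), and 45.0% and 42.2% in the second (median 0.03). At equal library totals the candidates' BE2 median was -0.34, with 6 higher and 12 lower. That scaling also took the BE2 median of all genes tested from -0.02 to -0.13. Of the candidates higher in SK-N-SH shTSPYL5, the largest difference was that of KIF1B, a kinesin that carries mitochondria and synaptic vesicle precursors along axons and has been proposed as a pro-apoptotic suppressor. It was at 3.41, 3.00 and 3.25 FPKM in SK-N-SH control and at 12.7, 12.2 and 12.7 in shTSPYL5, and at 14.7, 14.4 and 13.9 and then 3.13, 3.10 and 3.35 in BE2. The MYCN-high groups were above all other libraries, with log2 differences (limma) of 1.68 and -1.87, both with an SE of 0.05, and an adjusted p of 4.0e-11 in the SK-N-SH comparison.

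DFFA and DFFB encode the inhibitor and the nuclease of the caspase-activated DNase that cuts DNA in apoptosis, and both were higher in the MYCN-high groups. DFFA was at 9.62 ± 0.24 FPKM (mean ± SD, n = 3) in SK-N-SH control against 19.9 ± 0.096, and at 21.7 ± 1.3 in BE2 control against 10.5 ± 0.70, with no overlap. Its log2 differences were 0.98 and -0.98, and those of DFFB 0.45 and -0.45, each past the threshold. Higher in SK-N-SH shTSPYL5 and lower in BE2 shTSPYL5 were also MIIP, an inhibitor of cell migration (1.04 and -0.87), SPEN, a transcriptional corepressor (0.99 and -0.86), PRDM2, a zinc finger protein of the histone methyltransferase family (0.87 and -0.86), and ARID1A, a subunit of the SWI/SNF remodelling complex (0.62 and -0.75). So were UBE4B, a ubiquitin chain elongation factor (0.50 and -0.52), and CAMTA1, a calmodulin-binding transcription activator (0.34 and -0.24). Only the SK-N-SH comparison passed for SDHB, a subunit of succinate dehydrogenase (0.42, and -0.15 with adjusted p = 0.059 in BE2), and for CDK11B (0.65, and -0.12 with adjusted p = 0.096). The difference of effects, BE2 minus SK-N-SH, passed for both, at -0.56 for SDHB (limma adjusted p = 0.00012) and -0.78 for CDK11B (limma adjusted p = 5.88e-06). 

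The candidates on the other side were lower in SK-N-SH shTSPYL5 and higher in BE2 shTSPYL5. ERRFI1, a feedback inhibitor of EGF receptor kinases, was at 22.1, 24.0 and 19.8 FPKM in SK-N-SH control against 4.54, 5.48 and 4.66, and at 4.95, 4.98 and 4.30 in BE2 control against 22.1, 28.5 and 27.0 (log2 differences -1.96 and 2.22). TNFRSF25, a death receptor and the 1 member among 7 TNF receptor genes of the region, differed by -1.68 and 1.36, and NBL1, an antagonist of bone morphogenetic proteins, by -1.52 and 1.25. NBL1 shares 17.8% of its exon bases with another gene on its strand. MAD2L2, a subunit of a translesion DNA polymerase, differed by -0.85 and 0.84 and CTNNBIP1, which blocks β-catenin from binding its transcription factor partners, by -0.76 and 1.17. PHF13, a chromatin reader, differed by -0.23 (adjusted p = 0.021) and 0.37, and its first call was lost without SK-N-SH control replicate 1 (adjusted p = 0.090) or SK-N-SH shTSPYL5 replicate 1 (0.054), over a range of 0.012 to 0.090. ZBTB17, which encodes the MYC-binding repressor MIZ, stayed at 8.37 to 9.67 FPKM in all 12 libraries, with differences of 0.03 (adjusted p = 0.59) and -0.05 (0.38). At equal library totals ZBTB17, SDHB and CDK11B also passed as lower in BE2 shTSPYL5 (adjusted p = 0.012, 0.00035 and 0.00071), over ranges of 0.012 to 0.69, 0.00035 to 0.21 and 0.00071 to 0.29. The candidates under the cutoff were CHD5 at a mean of 0.579 FPKM, CASZ1 at 0.271, TP73 at 0.747, EXTL1 at 0.507, CDK11A at 0.409 and RUNX3 at 0.0106. CHD5, a neuronal chromatin remodeller, was at a group mean of 0.0700 FPKM in SK-N-SH control, 0.697 in SK-N-SH shTSPYL5, 1.29 in BE2 control and 0.255 in BE2 shTSPYL5.

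**Figure D5:**
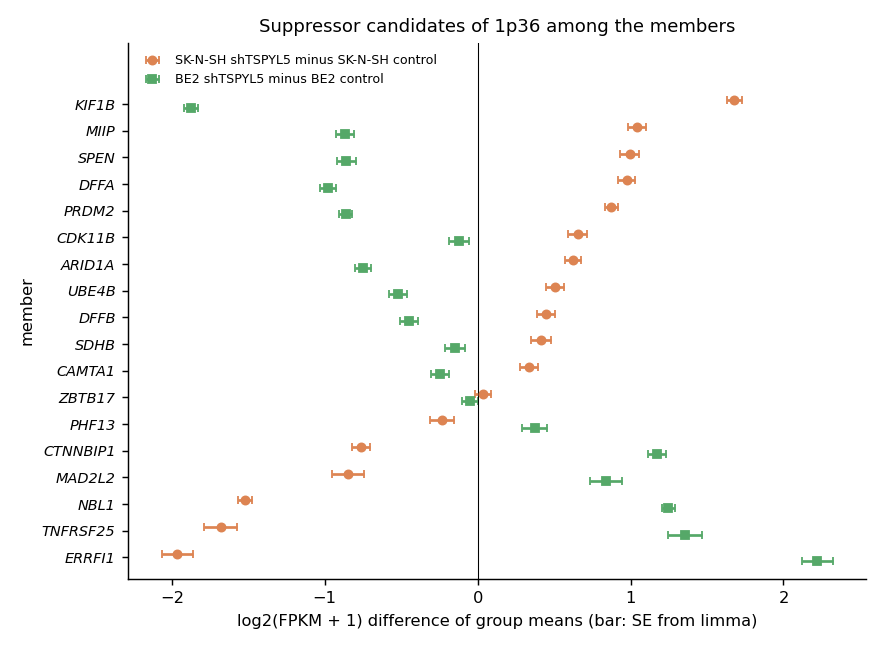
Difference of log2(FPKM + 1), shTSPYL5 minus control, with the standard error from limma (bars) for the 18 suppressor candidates among the members, sorted by the SK-N-SH value (orange circles), beside the BE2 value (green squares). The markers of the 2 labels lie on opposite sides of 0 in every row, from KIF1B at 1.68 and -1.87 to ERRFI1 at -1.96 and 2.22, with ZBTB17 near 0 at 0.03 and -0.05.

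The members of other roles, by lists that overlap in part, split as follows, with the SK-N-SH comparison first, and are to be read against the other protein-coding genes, of which 45.0% were higher and 41.5% lower in SK-N-SH (median 0.04) and 45.0% and 42.2% in BE2 (0.03). Among 22 genes of chromatin and transcription 14 were higher and 4 lower (median 0.21), and in BE2 4 were higher and 13 lower (-0.34). Among 19 genes of RNA processing and ribosome assembly 13 were higher and 4 lower (0.46), and in BE2 4 and 10 (-0.20). HNRNPR, an RNA-binding protein of the spliceosome, was at 21.2, 19.8 and 18.8 FPKM in SK-N-SH control and at 53.2, 52.8 and 54.6 in shTSPYL5, and at 50.1, 53.9 and 49.8 and then 25.7, 23.1 and 26.1 in BE2. Its groups did not overlap (log2 differences 1.38 and -1.01). SRSF10, a splicing regulator, was 2.11-fold higher in SK-N-SH shTSPYL5 and 2.12-fold lower in BE2 shTSPYL5, both past the threshold. Among 16 genes of ubiquitin ligases and proteases 9 were higher and 5 lower (0.30), and in BE2 6 and 9 (-0.30).

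Cytoskeletal, adhesion and matrix genes split the other way. Of 22, 4 were higher and 13 lower in SK-N-SH shTSPYL5 (median -0.84), and 16 were higher and 5 lower in BE2 shTSPYL5 (0.64), beside medians of 0.04 and 0.03 over the other protein-coding genes. The mesenchymal marker sum moves with this group, and its part in the result was not tested. Of 27 genes of mitochondria and metabolism 11 were higher and 12 lower (-0.09), and in BE2 14 and 4 (0.18). H6PD, the hexose phosphate dehydrogenase of the endoplasmic reticulum, was at 29.98, 29.2 and 29.03 FPKM in SK-N-SH control and at 5.71, 5.54 and 5.48 in shTSPYL5, and at 5.32, 4.98 and 5.20 and then 29.01, 28.98 and 27.7 in BE2. Its MYCN-low libraries were 5.28-fold above in SK-N-SH and 5.53-fold in BE2. Of 18 genes of growth, kinase and GTPase signalling 7 were higher and 6 lower (0.04), and in BE2 10 and 5 (0.32). PIK3CD, a catalytic subunit of phosphoinositide kinase known from leukocytes, was at 3.82 to 3.96 FPKM in SK-N-SH control and at 3.69 to 4.93 in BE2 shTSPYL5, against 0.0832 to 0.135 in the MYCN-high groups (log2 differences -2.13 and 2.31). Of 9 neuronal genes 4 were higher and 5 lower (-0.27), and in BE2 5 and 4 (0.64). The 63 members of no list split 23 to 29 (-0.01) and 32 to 21 (0.20). At equal library totals the median of each list kept its sign in both lines, but several moved. The median of all genes tested was then 0.06 in SK-N-SH and -0.13 in BE2. That of the mitochondrial and metabolic genes fell to 0.02 in BE2, with 13 higher and 7 lower, and went to -0.04 in SK-N-SH. That of RNA processing went to -0.32 in BE2, that of growth signalling to 0.08 in SK-N-SH and 0.18 in BE2, and that of the 63 unlisted members to 0.03 and 0.06.

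The controls of the 2 labels differed as well. In BE2 control minus SK-N-SH control 82 members were higher and 74 lower, where 45.5% and 41.1% of the other genes and 40.7% and 38.9% of all genes were. The comparison shares its controls with both comparisons above. AGRN lay lowest at -3.87, FUCA1 at -3.81, DHRS3 at -3.15, HSPB7 at -3.02 and SH3BGRL3 at -2.98, and FAM43B highest at 3.34, SAMD11 at 2.61, RAP1GAP at 2.29, KDM1A at 2.03 and RCC2 at 1.88.

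The MYCN-high groups hardly differed. In SK-N-SH shTSPYL5 minus BE2 control 7 members were higher and 2 lower, shares of 3.78% and 1.08%, beside 2.78% and 3.57% of the other genes and 2.26% and 3.12% of all genes, and no called member reached 1 on the log2 scale of the fit. By the ratio of mean FPKM, HSPB7 was 2.27-fold higher, at 1.13, 1.47 and 1.12 FPKM against 0.553, 0.644 and 0.448 with no overlap, but did not pass (log2 difference 0.53, limma adjusted p = 0.13). The SD of the log2 differences over members was 0.13. AGTRAP, which binds the angiotensin receptor, was at 8.91, 8.45 and 7.17 FPKM against 5.76, 5.99 and 6.07 (log2 difference 0.40, limma adjusted p = 0.0067). ASAP3, which acts on Arf GTPases, was at 8.55, 8.29 and 9.38 FPKM against 6.24, 6.58 and 6.43 (0.39, adjusted p = 0.0086), and SZRD1 at 28.0, 26.3 and 30.2 against 36.6, 36.7 and 35.5 (-0.35, adjusted p = 0.0062). In these 3 genes the groups did not overlap, and the calls held in all 18 alternatives. FNDC10 differed by 0.33 (limma adjusted p = 0.045, range 0.011 to 0.15 over alternatives), PLEKHG5, a guanine nucleotide exchange factor, by 0.33 (0.037, range 0.017 to 0.12) and NBL1 by -0.20 (0.026, range 0.021 to 0.11). Without any of the 3 libraries of SK-N-SH shTSPYL5 or of BE2 control in turn, 3 to 5 members passed in place of 9.

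The MYCN-low groups differed more often, by small amounts. In BE2 shTSPYL5 minus SK-N-SH control 84 members were higher and 26 lower, shares of 45.4% and 14.1%, beside 37.0% and 16.3% of the other genes and 26.9% and 17.2% of all genes. At equal library totals the split was 69 higher and 38 lower, and the median of all genes tested went from 0.02 to -0.03. At least 2-fold on the log2 scale of the fit 3 were higher and 2 lower, beside 1.34% and 1.01% of the other genes. TRNP1, a nuclear protein of neural progenitors, was at 6.08, 6.67 and 7.23 FPKM in SK-N-SH control and at 30.0, 37.7 and 32.8 in BE2 shTSPYL5, a mean 5.03-fold higher (log2 difference 2.17, limma adjusted p = 2.4e-07). In the MYCN-high groups TRNP1 was at 2.39 to 3.64, so the BE2 shTSPYL5 libraries stood above all 9 others. SAMD11 (1.85) and HSPB7 (1.39) were the other members above 1 on the log2 scale of the fit. By the ratio of mean FPKM, GPR153, an orphan receptor, was also 2.25-fold higher (log2 difference 0.99) and KAZN 2.21-fold (0.82), and AGRN was 1.91-fold higher (0.91). DHRS3 (-2.02) and MXRA8 (-1.29), an adhesion protein of the matrix, were lower by over 2-fold, followed by TMEM51 (-0.74), MFAP2 (-0.68), a protein of elastic microfibrils, and RSRP1 (-0.68). MFAP2 was at 45.1, 43.6 and 44.0 FPKM in SK-N-SH control, at 28.7, 27.1 and 26.0 in BE2 shTSPYL5 and at 16.0 to 21.8 in the MYCN-high groups. Of 27 mitochondrial and metabolic members, 18 were higher in BE2 shTSPYL5 and 0 lower (median 0.31), and of 22 cytoskeletal and matrix members 5 were higher and 6 lower (0.01). The members of the outermost 7 Mb had a median of 0.26, with 34 of 55 higher and 8 lower, and those of the other windows medians of 0.11, 0.09 and 0.09.

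Neighbours moved alike in some places and apart in others. Of 184 pairs of consecutive members, 126 had both genes past the threshold in SK-N-SH, and 55 of these moved in the same direction and 71 in opposite ones (43.7% the same). No share was taken for neighbouring pairs of the other protein-coding genes, so this value is a description of the members only. The F-box genes FBXO2, FBXO44 and FBXO6, which give substrate receptors of ubiquitin ligases, lie side by side and all were lower in SK-N-SH shTSPYL5 and higher in BE2 shTSPYL5. FBXO2 was at 3.36, 3.93 and 3.96 FPKM in SK-N-SH control and at 4.52, 5.44 and 3.66 in BE2 shTSPYL5, against at most 0.137 in the MYCN-high groups. FBXO6 was at 4.86, 5.32 and 5.73 and at 5.24, 5.72 and 5.14, against 5 reads in all in each MYCN-high group. FBXO44 was at 10.8 to 11.4 and 8.37 to 9.13 FPKM, against 1.72 to 2.54. For FBXO2, FBXO44 and FBXO6 in turn the log2 differences were -2.15, -2.01 and -2.58 in SK-N-SH and 2.35, 1.63 and 2.60 in BE2. This run was picked out after its values were seen, so it is a description. Each of its genes also had a group under the cutoff, so some difference was bound to the selection.

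Overlapping promoter windows held pairs of both kinds. A window here runs from 250 bases before to 50 after the RefSeq start site, and 157 of the 185 members had one in the table. SDF4, a calcium-binding protein of the Golgi lumen, and B3GALT6, a galactosyltransferase of proteoglycan synthesis, start in opposite directions and share 265 bases, with the single CACGTG of the B3GALT6 sequence above (1232110 to 1232115) in both windows. SDF4 was at 51.8, 55.4 and 48.2 FPKM in SK-N-SH control against 24.7, 25.0 and 27.2, and at 27.3, 26.7 and 25.0 in BE2 control against 61.9, 69.6 and 68.4. Their log2 differences were -0.99 and -0.92 in SK-N-SH and 1.31 and 1.40 in BE2. FBXO2 and FBXO44 share 77 bases and hold no CACGTG. EMC1, a subunit of the membrane protein insertion complex of the endoplasmic reticulum, and MRTO4, a ribosome assembly factor, share 220 bases and moved apart. EMC1 was at 15.2, 18.9 and 16.6 FPKM in SK-N-SH control against 10.6, 10.1 and 10.3 in shTSPYL5, while MRTO4 went from 17.0, 18.0 and 14.3 to 30.3, 30.5 and 35.6. The differences were -0.66 and 0.93, and in BE2 1.02 and -0.22. A CACGTG lies in the MRTO4 window at 19251819 to 19251824, after the start site, and none in that of EMC1. Over the 5 such pairs, RSRP1 and TMEM50A were also alike (-0.84 and -0.78) and INTS11 and CPTP apart (0.17 and -0.76), so 3 moved alike and 2 apart in SK-N-SH. These few pairs were set beside no pairs of other genes either. In BE2 RSRP1 and TMEM50A were at 0.23 and 1.53, and INTS11 and CPTP at 0.08 (limma adjusted p = 0.14) and 1.23, the same sign.

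CACGTG was found in the windows of 14 of the 157 members (8.92%), beside 7.26% of all 35116 promoters of the table. Of the 14, 6 were higher and 6 lower in SK-N-SH shTSPYL5 (median 0.04), and of the 143 without it 65 were higher and 56 lower (median 0.09). DFFA, whose sequence above holds 2 of them (10472578 to 10472583 and 10472627 to 10472632), was 2.07-fold higher in SK-N-SH shTSPYL5 and 2.06-fold lower in BE2 shTSPYL5, whereas B3GALT6 and SDF4 went the other way. A match is only a description of these letters.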

How the data were processed

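RNA of 4 groups with 3 libraries each was sequenced, per the labels' protocols after library preparation with a NEBNext Ultra kit. HISAT2 2.0.5, featureCounts 1.5.0-p3 and the build mm10 are named in the submitters' processing notes. The deposited FPKM table, made by the authors, lists human Ensembl genes, whose starts and ends equal those of GENCODE release 29 (GRCh38) for all 58735, so mm10 was not used. FPKM times gene length gave whole reads for 100% of values (tolerance 0.05 reads), from which the reads of each library were taken. The divisor behind the FPKM was proportional to the library's size factor, the median over genes of the ratio to each gene's geometric mean. It was 0.924 to 1.08 times the total reads. Such scaling centres the typical gene near no difference, so the members' medians are read beside those of the other genes. Values were tested as log2(FPKM + 1) with limma 3.58.1 (R 4.3.3), in 1 model of 4 group means over all 12 libraries with an intensity trend, on the 15856 genes with a mean of at least 0.5 FPKM. Two-sided p-values were adjusted (Benjamini-Hochberg) in each comparison apart. This scale understates changes of low genes. No count test was run as the main test because the deposited unit is FPKM. The text names the suppressor candidates, the 5 largest differences per direction and comparison without overlap between groups, up to 2 members per role list, genes higher or lower in both lines, and those near the cutoff. Neighbour pairs and runs were added. Members and lists were chosen with earlier results of these data known. Replicate numbers did not pair libraries (correlations of deviations from -0.075 to 0.10, with 1 of 18 above 0.1). Alternatives were a pseudocount of 0.1, other minimum levels, equal library totals, voom on the recovered reads, a replicate block and leaving out each library. Only the limma fit was tried on simulated reads, with far fewer changed genes than were called here, and the other steps were not. Promoter sequences are from RefSeq on GRCh38.p14. Values of a few genes are not reported here.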

Additional observations from a re-analysis of the deposited data

Results flagged for a closer look

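The effect of the shTSPYL5 label differed between the lines, by the interaction term in limma, in 164 of the 185 members (88.6%), beside 90.7% of the other protein-coding genes, so the share was near the background. The 5 most negative differences (BE2 effect minus SK-N-SH effect, log2 scale of the fit) were FAM43B at -6.60, RAP1GAP at -4.36, KDM1A at -4.12, RCC2 at -3.74 and KIF1B at -3.55. The 5 most positive were AGRN at 8.48, FUCA1 at 7.94, HSPB7 at 6.90, SH3BGRL3 at 6.20 and FBXO6 at 5.17. In each of these 10 genes the effect had opposite signs in the lines. Each shTSPYL5 group resembled the control of the other label, and these signs follow from that likeness. FAM43B, RAP1GAP, AGRN, FUCA1, HSPB7 and FBXO6 are among the 33 members with a group under the cutoff. For FAM43B and FBXO6, with few reads in the low groups, the size depends on the 1 added to each FPKM.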

How the results depend on the processing

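The counts of members past the threshold stayed within 1.5 times under every alternative run, except in SK-N-SH shTSPYL5 minus BE2 control. There 9 members passed, 3 with a replicate block (2 higher and 1 lower) and 3 to 12 when 1 library was left out. The median of the members minus that of the other genes was 0.018 in SK-N-SH shTSPYL5 minus control (-0.00036 to 0.044 with 1 library left out, the lowest without SK-N-SH control replicate 3), 0.010 between the controls (0.0036 to 0.035) and 0.043 in BE2 shTSPYL5 minus SK-N-SH control (0.027 to 0.063). In BE2 shTSPYL5 minus control it was 0.056, and 0.037 with members of at least 5 FPKM. Of the values of named genes under the alternatives, 1923 kept their direction and side of the threshold, 49 fell below the threshold, 7 passed it anew, and 1 changed sign: ZBTB17 in SK-N-SH shTSPYL5 minus control was at 0.03, and at -0.012 to 0.081 with 1 library left out, negative only without SK-N-SH shTSPYL5 replicate 2 (adjusted p = 0.85, range 0.17 to 0.85). The replicate block, whose numbers do not pair the libraries, gave 153 calls in place of 154 in SK-N-SH and 154 in BE2. The cause of these changes was not tested. Genes with few reads in a group, such as FAM43B and FBXO6, are limited by depth.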
